A study of Mus musculus with 20 samples.

Results

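Genes of the motile cilium and its axoneme were followed across mouse ovary libraries. They were chosen by symbol: protein-coding genes named Cfap, Dnah, Dnai, Dnaaf, Rsph, Tekt or Drc with a number, plus Foxj1. The GENCODE annotation held 69 such genes, and 61 of them were among the 17651 genes of the table. The other 8 (Cfap157, Cfap298, Cfap97d1, Dnaaf2, Dnah14, Dnah8, Rsph3a and Rsph6a) were not analysed here. The 61 comprised Foxj1, 6 genes of the outer dynein arms, 9 of the inner dynein arms, 3 dynein arm assembly factors, 6 radial spoke genes, 3 of the nexin-dynein regulatory complex, 5 tektins and 28 Cfap genes.

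A motile cilium beats because dynein motors slide the microtubule doublets of its axoneme against each other. Outer and inner dynein arms supply the force, radial spokes and the nexin-dynein regulatory complex control it, and tektins are filaments within the doublets. The transcription factor Foxj1 turns on these genes in multiciliated cells. In the female tract such cells line the oviduct, where their beat moves the egg. The mouse ovary lies in a bursa next to the open end of the oviduct, and Ovgp1 is the glycoprotein secreted by the oviduct's other epithelial cell type. Some of the same genes also build the sperm flagellum, and a few, such as Cfap20 and Cfap97, are made in many cell types.

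The study sequenced RNA of whole ovaries from mice labelled WT, with 5 groups of 4 libraries. Young mice were 7 to 8 weeks old, adult mice 27 to 28 weeks and aged mice 73 to 74 weeks. The aged mice received vehicle or HEP14, a compound known as an activator of protein kinase C. A group of adult mice with HEP14 is named in the titles only, and no treatment is given for the young and adult groups. Dose, duration and whether each library came from its own animal are not stated. The p-values therefore set differences between group means against the spread between these libraries, which need not be that between animals.

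The deposited values are scores: each gene has a mean of 0 and an SD of 1 over the 20 libraries. Every score and difference below is in SD of that gene and is neither a level nor a fold change, so members cannot be ranked by abundance, and the reads behind the values are unknown. The 4 aged libraries stood apart from the rest over all genes. Their median score was -0.62 to -0.28, against -0.16 to 0.02 in the other 16, and 1956 to 3697 genes were at a lowest value shared by several libraries, against 686 to 1218. Oocyte and granulosa cell markers were in the table with 10 of 10 and 7 of 8 genes, and the oocyte list averaged from -2.09 to -0.70 in aged ovaries, against -0.66 to 1.45 in the other 16 libraries. No pair of libraries held identical values.

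Motifs in the promoters, which the choice of members did not use, were counted. Promoter windows of 300 bases, 250 before and 50 after the start, were found in RefSeq (GRCm38.p6) for 49 of the 61 members, in 56 windows. The core of the sites of RFX factors, which act with Foxj1 in ciliated cells, was searched as GTTGCC on both strands. It was in 22 of the 56 windows (39.3%), from 20 genes, and in 4111 of 32851 windows of all genes (12.5%). The forkhead motif GTAAACA, also searched on both strands, was in 4 of the 56 windows (7.14%), of Cfap20, Cfap43, Dnah17 and Tekt3, and in 3.65% of all windows. The member windows are not independent, since several genes have more than 1 window and the Dnah7 genes are near-identical. These are matches of letters and not shown to be bound.

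The 250 bases before the start are given for 4 members, with matches on either strand in capitals. They are shown because they follow the contrasting patterns described below. Drc1 (chr5:30281143-30281392, plus strand) and Dnaic2 (chr11:114727169-114727418, plus strand) hold the RFX core close to the start. Tekt3 (chr11:63061409-63061658, plus strand) holds the forkhead motif. Cfap161 (chr7:83794840-83795089, minus strand) holds the RFX core at 3 places. The first 3 were high in the same 4 libraries, and Cfap161 was highest in an aged library.
Drc1: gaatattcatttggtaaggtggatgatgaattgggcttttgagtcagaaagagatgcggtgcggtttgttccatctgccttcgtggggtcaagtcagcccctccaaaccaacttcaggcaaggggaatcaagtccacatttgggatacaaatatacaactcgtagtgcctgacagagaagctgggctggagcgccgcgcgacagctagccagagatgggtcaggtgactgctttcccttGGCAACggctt
Dnaic2: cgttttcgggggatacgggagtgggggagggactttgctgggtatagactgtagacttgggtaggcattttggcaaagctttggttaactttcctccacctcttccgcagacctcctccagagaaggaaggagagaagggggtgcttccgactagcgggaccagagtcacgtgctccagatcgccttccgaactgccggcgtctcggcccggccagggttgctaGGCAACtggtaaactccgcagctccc
Tekt3: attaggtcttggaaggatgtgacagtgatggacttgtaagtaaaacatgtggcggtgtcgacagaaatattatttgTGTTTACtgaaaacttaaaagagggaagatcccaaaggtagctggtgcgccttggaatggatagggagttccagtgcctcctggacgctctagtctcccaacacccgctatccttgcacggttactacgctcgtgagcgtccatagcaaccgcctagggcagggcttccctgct
Cfap161: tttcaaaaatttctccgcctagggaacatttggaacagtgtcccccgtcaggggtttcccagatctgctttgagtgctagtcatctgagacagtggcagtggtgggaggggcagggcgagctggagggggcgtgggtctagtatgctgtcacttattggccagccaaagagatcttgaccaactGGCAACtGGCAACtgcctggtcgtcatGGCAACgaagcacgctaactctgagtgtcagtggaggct

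Averaged over the motile cilia genes, 3 young libraries and 1 aged library with HEP14 scored highest, while the aged libraries without HEP14 varied from gene to gene. The mean score over the 61 members was 1.85, 0.75, 0.71 and -0.36 in young libraries 1 to 4. With HEP14 in aged ovaries it was -0.39, -0.34, 1.68 and -0.34, so library 3 alone was high in that group. The adult libraries lay between -0.59 and -0.36, the adult libraries with HEP14 between -0.51 and -0.40, and the aged libraries between -0.23 and 0.19. As group means ± SD (n = 4 each) the young group was at 0.74 ± 0.90, the adult at -0.43 ± 0.11, the adult with HEP14 at -0.47 ± 0.05, the aged at 0.00 ± 0.22 and the aged with HEP14 at 0.15 ± 1.02. The SD within the young group and within the aged group with HEP14 exceeded the distance between their means. In bulk tissue, fewer ciliated cells and less RNA per cell cannot be told apart.

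**Figure D1:**
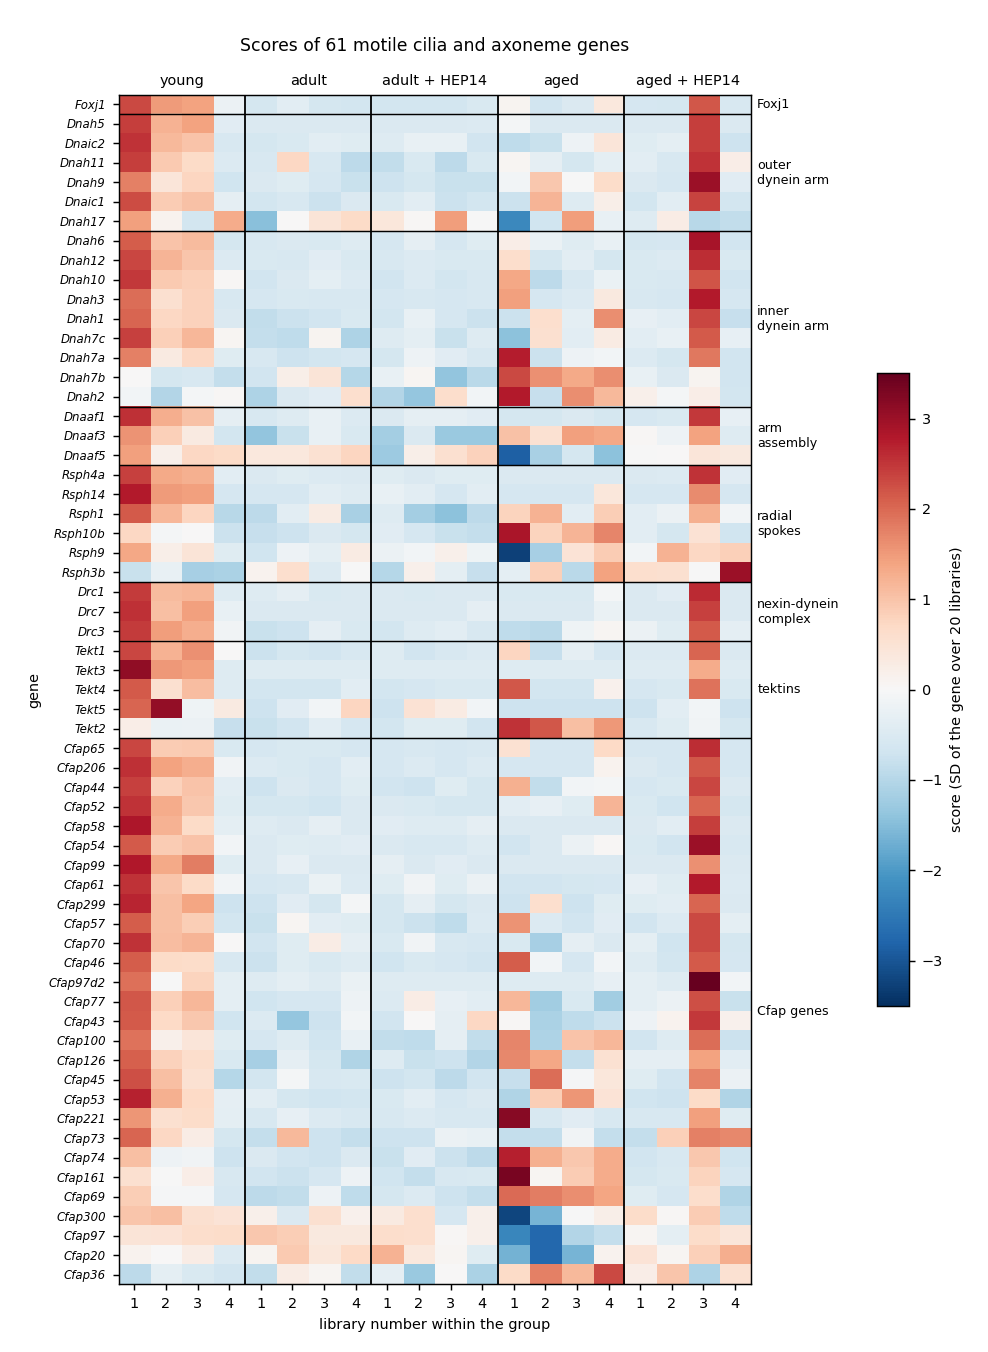
Scores of the 61 motile cilia and axoneme genes (rows, grouped by role) in the 20 libraries (columns, 4 per group), with colour in SD of the gene from blue (low) to red (high). Young libraries 1 to 3 and library 3 of the aged group with HEP14 are red in most rows, while Tekt2, Cfap69, Dnah7b, Rsph10b and Cfap74 are red in the 4 aged libraries.

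Within the young group and the aged group with HEP14, the same library was highest in most members. Young library 1 was the highest of its group in 54 of 61 members (88.5%) and in 29.5% of all genes. Young library 4 was the lowest in 54 members (88.5%) and in 25.4% of all genes, and both held in 52 members (85.2%) and 12.0% of all genes. In the aged group with HEP14, library 3 was the highest in 56 members (91.8%) and in 33.7% of all genes. Young libraries 1, 2 and 3 lay above all 8 adult libraries, with or without HEP14, in 54, 50 and 49 members, against 25.7%, 20.2% and 23.2% of all genes. Young library 4 did so in 15 members (24.6%), near its 20.9% of all genes. Library 3 of aged ovaries with HEP14 did so in 52 members, against 14.1% of all genes. Its group's other libraries did so in 3 to 8 members (4.92% to 13.1%), against 11.5% to 15.1%. The members are not independent of each other, since they were read in the same 20 libraries.

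In 23 of the 61 members (37.7%) the 4 highest libraries of all 20 were exactly young 1, 2 and 3 and aged with HEP14 3, a set chosen after its values were seen. The same 4 libraries were highest in 343 of all 17651 genes (1.94%). By role they were so in Foxj1, in 3 of 3 genes of the nexin-dynein regulatory complex, 9 of 28 Cfap genes, 3 of 9 inner arm genes, 2 of 6 outer arm genes, 2 of 6 radial spoke genes, 2 of 5 tektins and 1 of 3 assembly factors.

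Foxj1 (chr11:116330704-116335399 in GRCm38), the regulator of the set, scored 2.30, 1.49, 1.42 and -0.20 in young libraries 1 to 4. It scored -0.61, -0.38, -0.62 and -0.65 in adult libraries and -0.63, -0.63, -0.65 and -0.52 in adult libraries with HEP14. In aged libraries it scored 0.10, -0.68, -0.50 and 0.37, and with HEP14 -0.60, -0.61, 2.16 and -0.56. Its lowest young library was above the adult libraries of both kinds but below 2 aged libraries. Library 3 of the aged group with HEP14 was above every other library except young 1.

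The outer arm genes encode the motors that set beat frequency. Dnah5 (chr15:28203752-28472052), an outer arm heavy chain, scored 2.43, 1.22, 1.42 and -0.40 in young libraries and 2.43 in library 3 of aged ovaries with HEP14. Its other 15 libraries lay between -0.52 and -0.07. Dnaic2, an intermediate chain that ties the motor to the doublet, scored 2.53, 1.13, 1.0002 and -0.55 in young and 2.41 in the same HEP14 library, and at most 0.42 elsewhere. Dnah17, the heavy chain of the sperm tail's outer arm, did not follow them: its highest library was aged 3 at 1.47, its lowest was aged 1 at -2.25, and library 3 of the aged group with HEP14 was at -0.98.

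Of the inner arm heavy chains, Dnah6 (chr6:73017606-73221651) scored 2.11, 0.998, 1.11 and -0.61 in young and 2.90 in library 3 of aged with HEP14, and at most 0.23 elsewhere. Dnah2 followed the set least among them, with aged libraries at 2.76, -0.79, 1.62 and 1.14 and the other 16 between -1.37 and 0.63. Dnah2 overlaps an antisense gene, and whether counting used strand is not stated. The 3 copies Dnah7a, Dnah7b and Dnah7c on chromosome 1 are near-identical, so reads may be split among them. Their scores differed all the same: Dnah7c was high in young 1 (2.40) and aged with HEP14 3 (2.14), Dnah7a was highest in aged 1 (2.75), and Dnah7b was high in all 4 aged libraries.

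The assembly factors preassemble dynein arms in the cytoplasm. Dnaaf1 scored 2.56, 1.27, 1.03 and -0.31 in young libraries and 2.48 in library 3 of aged with HEP14, and was between -0.62 and -0.26 in the other 15. Dnaaf5 scored 1.43, 0.18, 0.71 and 0.68 in young and -2.86, -1.14, -0.60 and -1.45 in aged, with 0.42 in the HEP14 library that was high for Dnaaf1. All aged libraries were below all young ones, but adult 1 with HEP14, at -1.27, was below aged 2 and aged 3.

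All 3 genes of the nexin-dynein regulatory complex, the link between neighbouring doublets, kept to the shared pattern. Drc1 (chr5:30281388-30366695) scored 2.44, 1.11, 1.17 and -0.44 in young and -0.50, -0.41, 2.61 and -0.50 in aged with HEP14, and its other libraries lay between -0.54 and -0.06. Drc3 scored 2.45, 1.47, 1.28 and -0.13 in young and 2.15 in the same HEP14 library, and at most 0.06 elsewhere. The radial spoke head gene Rsph4a (chr10:33905111-33916021) scored 2.39, 1.33, 1.24 and -0.37 in young and 2.54 in that library. In the other 15 libraries it lay between -0.51 and -0.41. Rsph3b, a spoke gene with a near-identical copy, was highest in library 4 of aged ovaries with HEP14 at 3.001, and its young libraries were at -0.78, -0.26, -1.15 and -1.12.

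The tektins differed from each other. Tekt1 scored 2.34, 1.21, 1.60 and 0.00 in young, 2.05 in library 3 of aged with HEP14 and at most 0.75 elsewhere. Tekt3 (chr11:63061654-63094964), best known from sperm, scored 3.10, 1.51 and 1.43 in young 1 to 3 and 1.30 in library 3 of aged with HEP14. In all 16 other libraries it was at 1 shared lowest value, -0.46. Tekt2 (chr4:126322121-126325688), needed for sperm and cilia, instead scored 2.54, 2.17, 1.05 and 1.53 in aged libraries and between -0.79 and 0.22 in the other 16. Tekt5 was highest in young 2 (3.07) and young 1 (2.03), its next library was adult 4 (0.75), and library 3 of aged with HEP14 was at -0.10.

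The Cfap genes are a mixed group named for being found in cilia and flagella. Cfap65, needed for the sperm flagellum, scored 2.34, 0.89, 0.92 and -0.52 in young, 2.58 in library 3 of aged with HEP14 and at most 0.69 elsewhere. Cfap46, Cfap54, Cfap74 and Cfap221, whose Chlamydomonas counterparts sit together on the central pair of microtubules, were not alike here. Cfap54 scored 2.15 in young 1 and 2.99 in library 3 of aged with HEP14, and at most 0.05 outside those and young 2 and 3. Cfap46 was as high in aged 1 (2.12) as in young 1 (2.13), Cfap221 was highest in aged 1 (3.18), and Cfap74 was at 0.94 or above in all 4 aged libraries. Cfap36, which binds a small GTPase of the primary cilium, was lower in young (-0.92 to -0.35) than in aged (0.66 to 2.32).

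Counts of shared lowest values come from the same scores, so they restate the pattern and are not separate support for it. How genes entered the table is not stated, and a member may be in it only through the libraries where it is high. Reads are not given, so it cannot be told whether a lowest value stands for 0 reads. In 23 of 61 members the lowest value was common to 2 or more libraries, within 1e-09, against 25.2% of all genes. Of these 23, 0 were at it in young 1, 2 and 3 and in library 3 of aged with HEP14, and 3 were in young 4. The adult libraries held 5 to 12, those with HEP14 4 to 9, the aged libraries 11 to 20 and the other 3 aged libraries with HEP14 9 or 10. Tekt3 was at it in 16 libraries, Drc7 in 13, Cfap99 in 12 and Cfap97d2 and Rsph14 in 10 each. The aged counts stand beside the higher number of such genes in aged libraries over the whole table. Of the 4445 genes of the table with a shared lowest value, 791, 880, 850 and 936 were at it in young 1 to 4. In library 3 of aged with HEP14, 854 were.

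**Figure D2:**
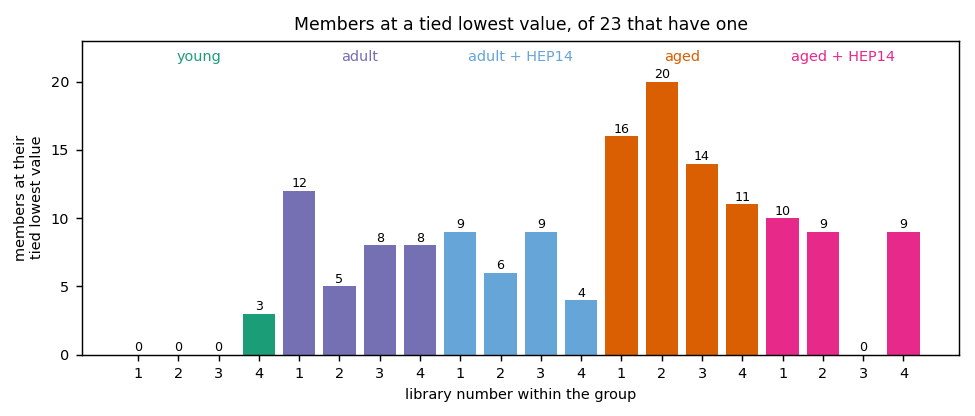
Number of members at their shared lowest value in each library (bars, y axis from 0), of the 23 members that have one, with libraries along the x axis coloured by group. Young libraries 1 to 3 and library 3 of aged with HEP14 stand at 0, and aged library 2 stands highest at 20.

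The members were chosen as a measure of oviduct tissue, and lists of other genes were read in the same libraries. The 40 other axoneme genes averaged 1.87, 0.75, 0.79 and -0.28 in young 1 to 4 and 1.54 in library 3 of aged with HEP14, which is close to the members. The oviduct and Müllerian duct list of 8 genes averaged 2.59, 0.87, 0.65 and 0.45 in young libraries. In aged libraries with HEP14 it averaged -0.17, -0.26, 0.36 and -0.67, and in aged 3 0.64. Young 1 was thus the highest library of all 3 lists, and library 3 of aged with HEP14 was at 1.68 for the members and at 0.36 for the oviduct list.

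Single oviduct genes differed. Ovgp1, the oviduct's secreted glycoprotein, scored 2.34, 2.11, 0.97 and -0.12 in young and -0.58, -0.69, 1.36 and -0.78 in aged with HEP14. Pax8, a transcription factor of the oviduct's secretory cells, scored 3.38, 1.47, 1.14 and 0.04 in young and 0.80 in library 3 of aged with HEP14, where its group's other libraries were at or below -0.42. Pax2 and Wnt7a, which act in the Müllerian duct, were highest in young 1 (3.53 and 4.01) and were at -0.62 and -0.37 in that HEP14 library. Ovgp1 and Pax8 were therefore high in the library of the aged HEP14 group in which the cilia genes were high, and Pax2 and Wnt7a were not. Over all 8 oviduct genes, that library was the highest of its group in 5 and the lowest in 2. The shares of all genes were 33.7% and 29.2%.

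Several lists of other tissues were also high in young libraries, but not in the same order among them. In young libraries the smooth muscle list averaged 0.64 to 0.99, the oocyte list 0.75 to 1.45 and the granulosa cell list 0.27 to 0.75. The surface epithelium list, at -0.68 to 0.28, was not high there. The 11 epithelium genes averaged 2.13, 1.09, 0.47 and -0.19 in young and 0.95 in library 3 of aged with HEP14. The 9 fat cell genes averaged 1.42, 0.90, 2.06 and 0.28 in young, and -0.23 in that HEP14 library, where its group's others were at -0.68 to -0.47. The 24 genes of the primary cilium and its transport, which most cells have, varied less, from 0.29 to 0.84 in young and 0.34 in that HEP14 library. The 7 regulators of multiciliated cells averaged 1.95 in young 1 and 1.38 in that HEP14 library. Young 1, 2 and 3 and aged with HEP14 3 were the 4 highest libraries in 15 of 40 other axoneme genes, 2 of 8 oviduct genes, 3 of 11 epithelium genes and 1 of 24 primary cilium genes. They were so in 0 of 7 regulators, 7 surface epithelium, 9 fat, 9 smooth muscle, 10 oocyte and 7 granulosa cell genes. The scores do not give an amount of oviduct, and the part that oviduct, fat or other tissue had in any comparison was not tested.

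**Figure D3:**
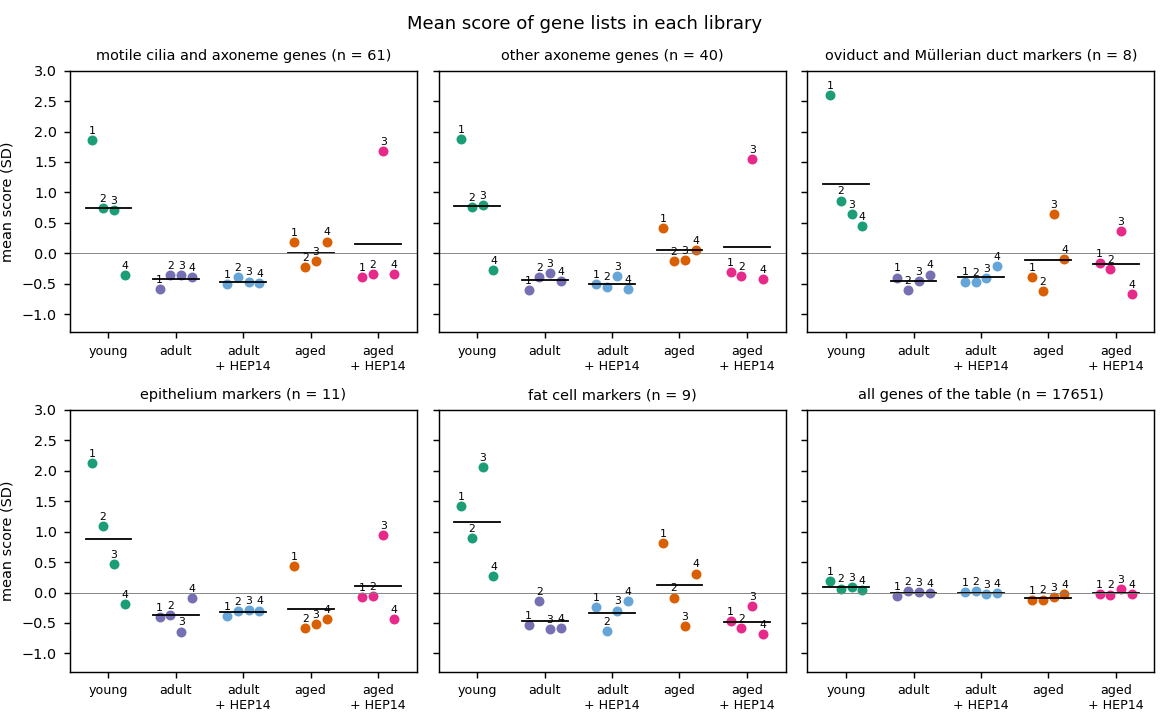
Mean score (y axis, SD of the gene) of 5 gene lists and of all genes in each library (numbered points), with the group mean as a line. Young 1 is the highest library of the members, the other axoneme genes, the oviduct list and the epithelium list, and library 3 of aged with HEP14 is near it (1.68 against 1.85) only for the members and the other axoneme genes.

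Between young and adult ovaries, the members that passed the test were all lower in adults. They were Foxj1, the tektins Tekt1 and Tekt3, Drc3, Cfap99, Cfap206, the inner arm gene Dnah7c and the spoke gene Rsph14. That is 8 of 61 members lower and 0 higher, where 7.17% of all genes were called lower, 2.75% higher and 9.92% in either direction. The median difference over members was -1.43, against -0.01 over all genes, and 56 of 61 members were lower in mean. Not every young library was high: the mean score over members was -0.36 in young 4, near the adult libraries at -0.59 to -0.36. In 17 members the groups did not overlap, all lower in adults, against 16.5% of all genes lower and 11.8% higher. Tekt1 differed by -1.94 (SE 0.52, adjusted p = 0.0251), Drc3 by -1.86 (SE 0.51, adjusted p = 0.0285) and Foxj1 by -1.82 (SE 0.53, adjusted p = 0.0368, lower in 4 of 4 adult libraries than in any young one), in limma with n = 4 per group.

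The count in this comparison changed with single libraries. Leaving out young 4, the library low in cilia genes, raised it from 8 to 27, while the share of all genes called was 8.36% (6.75% lower). It fell to 0 without young 1, adult 1 or adult 2, where 3.56%, 6.08% and 3.66% of all genes were called. It fell to 1 without young 2, young 3 or adult 4, where 7.37%, 4.9% and 6.72% of all genes were called. Without adult 3 it was 4, against 7.97% of all genes. The adjusted p of Foxj1 was 0.0648 to 0.139 on leaving out any of these libraries but young 4. With 1 variance per group, 23 members were called, all lower, while 29.3% of all genes were called (17.9% lower). Among other lists, 10 of 40 other axoneme genes were called lower and 1 higher, and 8 of 9 fat cell genes lower and 1 higher. Lower calls were 4 of 8 oviduct genes and 4 of 11 epithelium genes. In the fit used, 7.17% of all genes were called lower and 2.75% higher.

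Between young and aged ovaries the members split. Dnah7b, Cfap36, Tekt2 and Rsph10b were the called members with the largest rise in aged ovaries, and Cfap97, Dnaaf5, Tekt5 and Cfap300 those with the largest fall. Of 61 members 8 were called higher and 26 lower, where 33% of all genes were called higher, 41.3% lower and 74.3% in either direction. The lower count is close to the background share and the higher count is below it. The median difference was -1.15 over members and -0.41 over all genes. The groups did not overlap in 5 members higher in aged and 10 lower, against 24.7% and 35.4% of all genes. By role, lower calls were 3 of 3 nexin-dynein genes, 2 of 3 assembly factors, 3 of 5 tektins, 12 of 28 Cfap genes, 2 of 6 outer arm genes, 2 of 6 spoke genes, 1 of 9 inner arm genes and Foxj1.

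Foxj1 differed by -1.43 between aged and young (SE 0.53, adjusted p = 0.0208), with overlap, and its adjusted p was 0.0873 without young 1 and 0.057 without aged 2. Rsph4a differed by -1.65 (SE 0.55, adjusted p = 0.0115) and Dnaaf1 by -1.73 (SE 0.56, adjusted p = 0.00872), and in both all aged libraries were below all young ones. Tekt5, a tektin of the sperm tail, differed by -2.03 and Cfap300, a dynein assembly factor, by -1.93, with adjusted p = 0.00163 and 0.00457. Rsph4a and Tekt5 were at their shared lowest value in every aged library, and Dnaaf1 in all but aged 3. The young libraries of Tekt5 were uneven, at 2.03, 3.07, -0.15 and 0.31. The Cfap300 difference was -1.25 without aged 1. Setting library medians equal moved the split to 10 higher and 14 lower, against 37.2% and 35.8% of all genes. With 1 variance per group 9 calls were left, against 62% of all genes. Without young 1, 19 members were called, against 70.2% of all genes.

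A smaller group was higher in aged than in adult ovaries. Not all of it was high in every aged library: Cfap126 was at -0.83 in aged 3 and Dnah2 at -0.79 in aged 2. Tekt2, Cfap69, Rsph10b and Cfap74 were the called members with the largest rise from adult to aged, and Dnah7b, Cfap161, Cfap36, Dnaaf3, Dnah2 and Cfap126 were also called higher. The counts were 10 of 61 higher and 3 lower, where 31.1% of all genes were called higher, 35.7% lower and 66.8% in either direction. Neither count exceeded the background share. The median difference was 0.34 for members and -0.26 for all genes. The groups did not overlap in 11 members higher and 3 lower, against 21.8% and 27.8% of all genes.

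Cfap69 (chr5:5579278-5664239), a protein of the sperm midpiece and of olfactory cilia, scored 1.97, 1.78, 1.62 and 1.38 in aged libraries, -0.93, -0.87, -0.19 and -0.89 in adult and 0.86, -0.04, -0.04 and -0.59 in young. All 4 aged libraries were above the other 16. Its difference from adult was 2.41 (SE 0.35, adjusted p = 8.33e-06), and that of Tekt2 was 2.42 (SE 0.31, adjusted p = 2.24e-06). Rsph10b, a radial spoke gene, scored 2.85, 0.79, 1.19 and 1.70 in aged and -0.81, -0.72, -0.50 and -0.62 in adult, and differed by 2.29 (SE 0.40, adjusted p = 5.03e-05). Dnah7b scored 2.30, 1.60, 1.32 and 1.63 in aged and -0.66, 0.21, 0.46 and -0.999 in adult, and differed by 1.96 (SE 0.38, adjusted p = 0.00015).

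Within the young group these genes too were highest in young 1 (Cfap69 0.86, Rsph10b 0.72, Tekt2 0.22 and Dnah7b 0.01), but all 4 aged libraries were above it. Foxj1 did not pass the test between aged and adult (0.38, SE 0.53, adjusted p = 0.538). Outside the members, 8 of 40 other axoneme genes were called higher and 1 lower, against 31.1% and 35.7% of all genes. Neither count exceeded the background share. Among them were Spef1 (2.52, adjusted p = 7.03e-07), which binds axonemal microtubules, and Gas8 (2.37, adjusted p = 7e-06), a nexin-dynein complex gene without a Drc symbol, both picked after their values were seen.

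**Figure D4:**
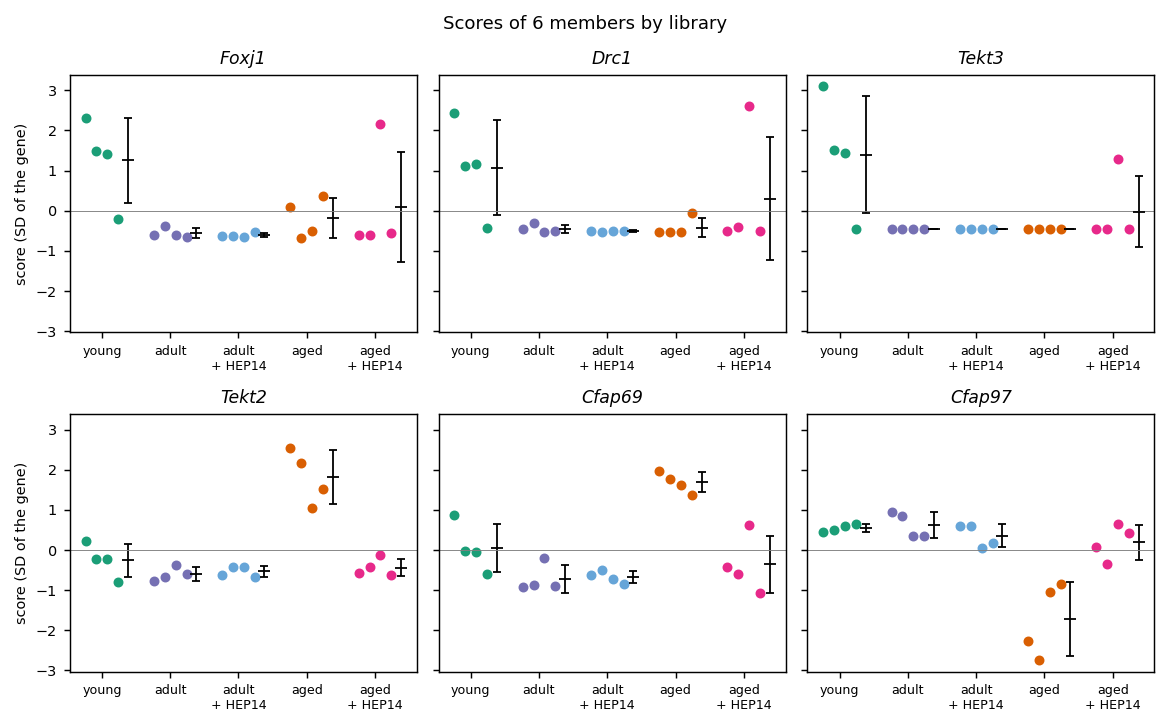
Scores of 6 members (y axis, SD of the gene) in each library (points), with group mean ± SD (n = 4) as bars beside them. Foxj1, Drc1 and Tekt3 are high in young 1 to 3 and in 1 aged library with HEP14, Tekt2 and Cfap69 in the 4 aged libraries, and Cfap97 is lowest in the 4 aged libraries.

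The 3 members lower in aged than in adult ovaries were Cfap97, Cfap20 and Dnaaf5. Cfap97 (chr8:46151771-46195590) scored -2.27, -2.74, -1.04 and -0.84 in aged, 0.94, 0.86, 0.35 and 0.34 in adult and 0.44, 0.49, 0.61 and 0.65 in young. All 4 aged libraries were below the other 16, and the difference from adult was -2.34 (SE 0.37, adjusted p = 1.81e-05). Cfap20, a protein of the junction within each doublet, scored -1.64, -2.74, -1.64 and 0.11 in aged and 0.09, 0.91, 0.40 and 0.71 in adult. Aged 4 overlapped the adult range, and the difference was -2.003 (SE 0.47, adjusted p = 0.000905). Dnaaf5 differed by -2.01 (SE 0.45, adjusted p = 0.000621), with no overlap.

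Aged ovaries with HEP14 had lower Tekt2, Cfap69, Dnah7b and Rsph10b than aged ovaries with vehicle, the called members with the largest fall. They had higher Cfap20, Cfap97, Dnaaf5 and Cfap73, the called members with the largest rise. Of 61 members 6 were called higher and 7 lower, where 33.2% of all genes were called higher, 29.3% lower and 62.5% in either direction. With library medians set equal, the members split into 3 higher and 10 lower, and all genes into 26.3% higher and 33.8% lower. The median difference was 0.32 for members and 0.31 for all genes. The groups did not overlap in 3 members higher and 4 lower, against 25.8% and 20.5% of all genes. This comparison shares the aged libraries with those of aged against young and aged against adult, so the signs in them are not independent.

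With HEP14, Tekt2 scored -0.57, -0.43, -0.12 and -0.61, all below the lowest aged library, and differed by -2.26 (SE 0.31, adjusted p = 7.07e-06). Cfap69 scored -0.42, -0.59, 0.63 and -1.06 and differed by -2.05 (SE 0.35, adjusted p = 5.9e-05). Dnah7b differed by -2.05 (SE 0.38, adjusted p = 0.00012) and Rsph10b by -1.92 (SE 0.40, adjusted p = 0.000353), both without overlap. In Cfap69 and Rsph10b library 3, at 0.63 and 0.52, was the highest of the HEP14 libraries, as it was for most members.

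On the other side, Cfap97 scored 0.07, -0.35, 0.64 and 0.42 with HEP14 and differed by 1.92 (SE 0.37, adjusted p = 0.000182). Cfap20 differed by 2.14 (SE 0.47, adjusted p = 0.000583, with overlap) and Dnaaf5 by 1.70 (SE 0.45, adjusted p = 0.00289). Cfap73, which in Chlamydomonas binds an inner arm to the doublet, scored -0.84, 0.84, 1.76 and 1.69 with HEP14 and -0.84, -0.84, -0.13 and -0.84 in aged, and differed by 1.53 (SE 0.57, adjusted p = 0.0256). Its adjusted p was 0.0503 to 0.0883 on leaving out aged 1, 2 or 4 or HEP14 library 3 or 4.

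Foxj1, Drc1 and Dnah5, which were high in young 1 to 3 and in library 3 of this group, did not pass in this comparison. Other members high in library 3 could pass: Cfap73, called higher above, was at 1.76 there and at 2.03, 0.73 and 0.27 in young 1 to 3. Foxj1 differed by 0.28 (SE 0.53, adjusted p = 0.665), and without library 3 of the HEP14 group by -0.41. Drc1 differed by 0.72 (SE 0.57, adjusted p = 0.278) and Dnah5 by 0.64 (SE 0.55, adjusted p = 0.323). Without library 3 the mean over members in the aged group with HEP14 went from 0.15 to -0.36.

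The mean score over members was low in adult ovaries with and without HEP14. No member passed in limma, where 1 of all genes (0.00567%) was called at an adjusted p under 0.05. At an unadjusted p under 0.05 there were 0 of 61 members, and all genes were not counted at that threshold. In 0 members were the groups separate, against 0.776% of all genes higher and 0.652% lower. The median difference was -0.01 over members and 0.00 over all genes. The adult libraries with and without HEP14 were low for Foxj1, and its difference was -0.04 (SE 0.53, adjusted p = 1).

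The response to HEP14 in aged ovaries was also tested against that in adult ovaries. The difference between the responses passed in 3 members higher and 5 lower, where 24.9% of all genes were called higher, 22.4% lower and 47.3% in either direction. Tekt2 had the largest negative difference between responses, -2.33 (SE 0.45, adjusted p = 0.000529), and Cfap20 the largest positive, 2.36 (SE 0.66, adjusted p = 0.00691). The other members were Cfap69, Rsph10b, Cfap74 and Dnah7b on the negative side and Cfap97 and Dnaaf5 on the positive side.

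Aged ovaries with HEP14 were last set against young ones. Rsph3b was called higher (1.86, SE 0.56, adjusted p = 0.0284) and Tekt5 lower (-1.79, SE 0.52, adjusted p = 0.0234), where 5.38% of all genes were called higher, 10.5% lower and 15.9% in either direction. The members' median difference was -0.64, against -0.01 over all genes. Without library 3 of the HEP14 group 29 members were called, 28 of them lower, against 18.8% of all genes (12.4% lower). Without young 4 there were 7, all lower, against 12.1% of all genes (8.79% lower). There were 0 calls without young 1 (9.19% of all genes) or HEP14 library 4 (8.61%). There was 1 without young 2 (12.7%), young 3 (10.3%) or HEP14 library 1 (12.8%).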

How the data were processed

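Total RNA of ovaries was read on an Illumina NovaSeq, per the labels' protocols. The submitters' processing notes name DESeq2 1.20.0, HISAT2 2.0.5 and featureCounts 1.5.0-p3. What each did, with which build, annotation and strand setting, is not given in the sources used here. The authors deposited 1 table of scores, and these deposited scores have a mean of 0 and an SD of 1 in each gene, so neither depth nor a counting error can be given. Of 17651 gene identifiers 17643 matched GENCODE M21 and 8 did not. Gene coordinates are from it (GRCm38) and need not be the authors' build.

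All genes were tested with limma 3.58.1 (R 4.3.3) in 1 linear model of the 20 libraries, with a coefficient for each group, no trend, and Benjamini-Hochberg adjustment over all genes at an adjusted p of 0.05. A pseudocount cannot be applied to scores, and in place of a filter on low values genes with a tied lowest value were left out. The alternatives were fits of only the groups compared, equal library medians, 1 variance per group, robust moderation, the replicate block, no tied lowest value, and each library left out.

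The members and lists were chosen with earlier results of these data known. Named members were Foxj1, the 4 called members with the largest difference in each direction, and per role those correlating most and least with the other members. Others were named after their values were seen. Lists were described by counts without a test.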

Additional observations from a re-analysis of the deposited data

Results flagged for a closer look

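Among the values followed by library, some lay far from the other 3 of their group (Dixon's 95% critical value), which chance does in about 1 in 20 groups. In aged ovaries with HEP14, library 3 stood apart from its group at 1.68 for the mean of the members and at 2.16 for Foxj1. Over single members, the highest library of that group stood apart in 39 of 61 (63.9%), against 7.23% of all genes. On a far smaller scale, adult 1 was apart at -0.59 for the mean of the members, adult 2 at -0.38 for Foxj1 and adult 4 with HEP14 at -0.52 for Foxj1.

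In 8 of 61 members the response to HEP14 differed between aged and adult ovaries by the test of that difference in limma. Of all genes 47.3% were called in it, so the members were called less often than genes at large. The test uses the aged libraries, which stood apart over all genes. The difference of responses was -2.33 in Tekt2, -2.10 in Cfap69, -1.93 in Rsph10b, -1.69 in Cfap74 and -1.66 in Dnah7b, and 2.36 in Cfap20, 2.18 in Cfap97 and 2.13 in Dnaaf5. The Cfap74 call was lost (adjusted p = 0.0523 to 0.0588) without aged 1, adult 2 with HEP14 or aged 1, 2 or 4 with HEP14.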

How the results depend on the processing

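With 1 variance per group, 9 members were called in aged against young (34 in the fit used) and 23 in adult against young (8). Of all genes 62% and 29.3% were called. With genes without a tied lowest value only, which keeps 38 of the 61 members, the counts were 20, 3 and, in aged with HEP14 against young, 1 (2). The shares of all such genes were 78.3%, 5.94% and 13.5%. Fits of only the groups compared gave 8 in aged with HEP14 against aged (13) and 0 in aged with HEP14 against young. They called 48.4% and 31.6% of all genes. Equal library medians moved the mean score of the members to 0.45 in aged and -0.38 in adult with HEP14, and Foxj1 in aged with HEP14 against aged reversed to -0.0883. The splits then were 10 higher and 14 lower in aged against young, 14 and 3 in aged against adult, and 3 and 10 in aged with HEP14 against aged. In the same order, all genes split into 37.2% higher and 35.8% lower, 34.9% and 29.6%, and 26.3% and 33.8%. The causes were not tested.

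Leaving out 1 library gave 19 to 41 calls in aged against young (70.2% to 73.8% of all genes). It gave 0 to 27 in adult against young (3.56% to 8.36%) and 11 to 14 in aged against adult (62.4% to 66.8%). In aged with HEP14 against aged it gave 11 to 13 (58.1% to 63%), and in adult with HEP14 against adult 0 (0% to 0.0227%). In aged with HEP14 against young it gave 0 to 29 (8.61% to 18.8%). The difference of responses had 7 to 10 (42.8% to 49.8%). Foxj1 ranged from -0.41 to 0.51 in aged with HEP14 against aged and from -0.0722 to 0.0185 in adult with HEP14 against adult, where it reversed to 0.0185 without adult 2. In aged against young it was lost with equal medians (0.0862), with 1 variance per group (0.193), without young 1 (0.0873) and without aged 2 (0.057).

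The named members, Foxj1 among them, were refitted in their comparisons, and 1 call can be lost in several refits. On leaving out a library, a call was lost in 42 refits, the sign reversed in 2 and the outcome was unchanged in 340. Under other settings the numbers were 10, 1 and 225. Lost calls included Tekt5 in aged against young (adjusted p = 0.104) and Dnah7b in the difference of responses (0.0663), both with 1 variance per group.

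The replicate block gave 5 calls in adult against young (8) and 33 in aged against young, and 13, 12, 0, 2 and 8 in the other comparisons in the order above. Of all genes it called 8.84% and 74.3%, and 66.4%, 62.1%, 0%, 14.6% and 46.4% in the others. Same-numbered libraries deviated together at correlations of -0.188 to 0.155, and in no comparison were all over 0.1, so the numbers are not treated as pairs. No depth is known, so no detection limit can be given.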

Other observations

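Outside the members, the genes whose scores followed the mean of the members most closely over the 20 libraries were picked after their values were seen. The Pearson correlation was 0.98 for Cdhr3, Fhad1 and Togaram2, as a description, since all points share the same libraries and rest mainly on the few high ones. It was above 0.9 in 148 of 17590 other genes and in 27 of the 61 members.

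Genes of the primary cilium and its transport were called in both directions. Of 24, 8 were called higher and 13 lower in aged against young (74.3% of all genes in either direction), and 10 higher and 10 lower in aged with HEP14 against aged (62.5% of all genes). Of 10 oocyte genes, 10 were called lower in aged against young, against 41.3% of all genes. In aged with HEP14 against aged 7 were called higher, against 33.2% of all genes.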
